A study of Mus musculus with 2 samples.

Results

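The cells described here are cycling epithelial cells of mouse small intestinal crypts, grown in co-culture with intestinal fibroblasts and profiled by Drop-seq, in which droplets pair single cells with barcoded beads that capture their polyA RNA. They were chosen from measured values. A barcode was kept with at least 300 genes and at most 20% of its UMIs (unique molecular identifiers, 1 per captured transcript) on mitochondrial genes. It was called epithelial when its Epcam, Krt8, Krt18, Krt19 and Cldn7 UMIs outnumbered its Col1a1, Col1a2, Col3a1, Sparc and Dcn UMIs. It was called cycling when 7 selection genes, Mki67, Top2a, Cenpf, Cenpe, Hmmr, Nusap1 and Ube2c, together made up at least 0.3% of its UMIs. The rule found 573 cells among 1783 epithelial cells and 2507 barcodes in all. Of these, 195 came from the 908 barcodes of the Ptger4-ON library and 378 from the 1599 barcodes of the Ptger4-OFF library.

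Both libraries were made from co-cultures of C57BL6 crypts and fibroblasts, labelled 10 weeks of age, in Organoid Growth Media. EP4, the product of Ptger4, is one of the receptors through which prostaglandin E2 acts. The Ptger4-ON cultures received the vehicle DMSO and grew as spheroids, while the Ptger4-OFF cultures received the EP4 inhibitor ONO-AE3-208 in DMSO at 10 uM, renewed on alternate days, with growth as budding organoids. A library was 1 pool of 6 cultures, so there was 1 sample per condition and no replicate of either. No test between conditions was possible, intervals below cover counting error only, and batch and condition cannot be told apart.

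Crypt epithelium renews from Lgr5-positive stem cells at the crypt base and from their rapidly dividing progeny, the transit-amplifying cells. A dividing cell copies its DNA in S phase, driven by E2F-controlled replication genes, and then builds the spindle and segregates its chromosomes in mitosis with genes that peak in G2 and M. After injury, or in spheroid culture, crypt epithelium can take on a fetal-like program with genes such as Ly6a, Clu and Anxa1.

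The cycling cells held 2221628 UMIs in Ptger4-ON and 2958597 in Ptger4-OFF, with medians of 6085 and 5631.5 UMIs per cell against 4364 and 3716 in the other epithelial cells. Levels below are CPM, the usual per-library scaling of counts, of the UMIs summed over the cells of 1 class and library. In Ptger4-ON, 7 cycling cells with more than 50000 UMIs gave 23.0% of the class's UMIs, and in Ptger4-OFF 2 such cells gave 3.74%. The libraries shared 1 barcode. Among barcodes that differed from a larger one by 1 base, 21 and 9 were cycling cells, and 24 and 43 cycling barcodes ended in an unread base. A doublet caller marked 1 cycling cell in Ptger4-ON and 0 in Ptger4-OFF, and no cell was removed for it.

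The cycling cells made up 33.4% of epithelial cells in Ptger4-ON (195 of 584, 95% exact binomial interval 29.6 to 37.4) and 31.5% in Ptger4-OFF (378 of 1199, 28.9 to 34.2). The intervals overlap. When every cell was thinned to 1000 UMIs, the shares were 34.7% (183 of 528 cells with at least 1000) and 34.5% (397 of 1151). Fibroblast-gated cells, in which the fibroblast genes led, passed the same 0.3% line in 9 of 294 and 11 of 363 cases. Cells crossed the line without a gap in the distribution. The cells just inside it (26 and 43) had pooled selection-gene shares of 0.317% and 0.322% of UMIs, and those just outside (33 and 46) had 0.278% and 0.276%.

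**Figure D1:**
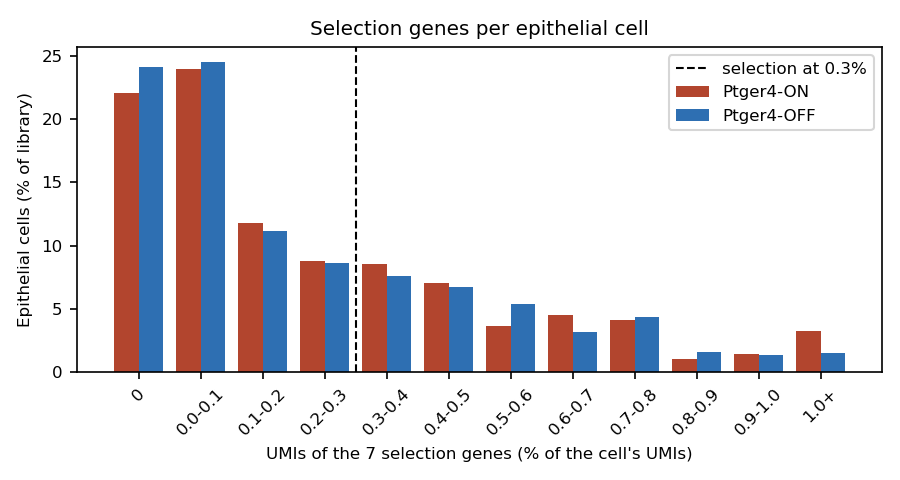
Share of each library's epithelial cells (y axis, %) by the part of their UMIs on the 7 selection genes (x axis, %), with Ptger4-ON in red and Ptger4-OFF in blue. Both libraries have their most filled ranges at or near 0 and a long right tail, and the dashed line at 0.3% cuts through a continuous slope.

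The selection genes set the class and are given as description only. Top2a, the DNA topoisomerase that untangles replicated chromosomes, stood at 1559.7 CPM in Ptger4-ON and 1539.9 CPM in Ptger4-OFF, and Mki67, which coats mitotic chromosomes, at 1084 and 1097 CPM. The median cycling cell carried 30 selection-gene UMIs in each library and had UMIs of 7 and 6 of the 7 genes. Kif11, a motor that pushes spindle poles apart, is the marker of the label that the rule did not use. It reached 177 CPM in Ptger4-ON and 221 CPM in Ptger4-OFF, against 30.9 and 34.3 CPM in the other epithelial cells. Cycling cells were therefore above other epithelial cells for Kif11 in both libraries, by 5.73-fold and 6.44-fold.

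Beyond the selection genes, the profile was one of mitosis more than of DNA replication. The selection genes are themselves mostly genes of G2 and mitosis, so the choice of cells favours mitosis genes over replication genes. The order of the 2 programs is therefore partly set by the rule. Cells of 1 library are not replicates, so the comparison of cycling with other epithelial cells is a description, given in each library apart. Of 10447 genes measured in Ptger4-ON, 343 (3.28%) were at least 2-fold higher in cycling cells and 749 (7.17%) at least 2-fold lower, 10.5% in all. Of 10778 in Ptger4-OFF, 324 (3.01%) were higher and 711 (6.6%) lower by that measure, 9.6% in all. The same 190 of 10272 genes (1.85%) were past 2-fold higher in both libraries and 359 (3.49%) past 2-fold lower. Over all genes the median log2 ratio was 0.05 and 0.04. Lists of genes were fixed by function, without the selection genes. The 95 genes of the mitosis lists had median log2 ratios of 1.65 in Ptger4-ON and 1.95 in Ptger4-OFF, with 78 and 82 past 2-fold higher. The 71 genes of the S phase lists had medians of 0.49 in Ptger4-ON and 0.46 in Ptger4-OFF, with 7 and 9 past 2-fold higher and none past 2-fold lower.

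The 20 genes outside the rule that stood highest in cycling cells in both libraries were set against the lists. Of them, 16 were on a mitosis or condensation list and 0 on an S phase list. Cycling-to-other ratios of the 20 ran from 4.40 to 10.1 in Ptger4-ON and from 4.42 to 10.3 in Ptger4-OFF. Aspm, a spindle pole protein, led them at 101 CPM in Ptger4-ON and 86.9 CPM in Ptger4-OFF, against 12.9 and 9.27 CPM in other epithelial cells. Prc1, which bundles the microtubules of the spindle midzone, stood at 408 and 441 CPM against 75.1 and 69.4 CPM. Plk1, the kinase that drives entry into and passage through mitosis, stood at 115 and 126 CPM against 22.8 and 21.1 CPM. Each of these 3 genes was thus far higher in cycling cells in both libraries. The other 17 were Kif11, Sgol2, Kif14, Casc5, Aurka, Dlgap5, Ska1, Sapcd2, Ckap2l, Espl1, Kif20b, Fam64a, Cdca2, Spc25, Tpx2, Prr11 and Ttk. They include protectors of cohesin (Sgol2), kinetochore proteins (Casc5, Ska1, Spc25), the separase that cuts cohesin at anaphase (Espl1), the spindle kinase Aurka and its activator Tpx2, and the checkpoint kinase Ttk.

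The promoters of these genes are shown for the letters of cell cycle elements in them. These genes were picked as those most raised with the selection genes in the same cells. Their promoter letters are therefore not independent of the rule. RefSeq promoters (build GRCm38.p6, 250 bases before to 50 after the start) were matched for 16 of the 20. The motif TTTGAA, the core of the cell cycle homology region (CHR) bound by the DREAM and MYB-MuvB complexes, lay on either strand in 13 (81.25%). The NF-Y box CCAAT lay in 13 (81.25%), and 11 (68.75%) had both. Over the promoters of all 27025 genes the shares were 20.2%, 41.1% and 7.97%. The E2F motif, TTTCCCGC or TTTGGCGC, lay in 0 of the 16 and in 1.80% of all genes. In the 56 matched genes of the S phase lists, E2F letters lay in 15 (26.8%), CCAAT in 30 (53.6%) and TTTGAA in 9 (16.1%). A match is a description of letters, not a bound site. Below are 120 bases 5′ of the start of Kif11 (chr19:37376262-37376381, plus strand), Espl1 (chr15:102296173-102296292, plus strand) and Ckap2l (chr2:129297213-129297332, minus strand), and of the replication gene Mcm6 (chr1:128359706-128359825, minus strand) for contrast, with these motifs on either strand in capitals.
Kif11: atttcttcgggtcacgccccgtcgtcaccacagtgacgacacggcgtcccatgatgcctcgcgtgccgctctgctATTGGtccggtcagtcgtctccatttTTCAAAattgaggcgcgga
Espl1: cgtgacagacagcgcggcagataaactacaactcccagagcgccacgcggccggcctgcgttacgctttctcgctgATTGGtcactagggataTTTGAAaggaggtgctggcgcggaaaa
Ckap2l: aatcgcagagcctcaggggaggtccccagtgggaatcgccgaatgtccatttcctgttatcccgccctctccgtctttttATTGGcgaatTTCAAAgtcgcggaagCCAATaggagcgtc
Mcm6: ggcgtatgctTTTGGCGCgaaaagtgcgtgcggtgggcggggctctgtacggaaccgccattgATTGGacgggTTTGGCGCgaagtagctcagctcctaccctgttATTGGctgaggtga
In these windows Kif11, Espl1 and Ckap2l hold the TTTGAA letters on one strand or the other, with a CCAAT box upstream of them. Mcm6 holds the E2F letters at 2 places and no TTTGAA.

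The mitosis lists and the chromosome condensation and cohesion list differed among themselves by role. Genes of the chromosomal passenger complex and cytokinesis had medians of 1.85 in Ptger4-ON and 2.13 in Ptger4-OFF, and all 15 were past 2-fold higher in each library. Spindle motors and microtubule factors had 1.87 in Ptger4-ON and 2.08 in Ptger4-OFF (23 and 25 of 27 past 2-fold). Mitotic entry kinases and cyclins had 1.64 in Ptger4-ON and 1.87 in Ptger4-OFF (17 and 16 of 19). Within that list Cdk1, the kinase that starts mitosis, stood at 262 CPM in Ptger4-ON and 313 CPM in Ptger4-OFF, and its partner Ccnb1 at 156 and 163 CPM, against 81.7 and 66.6 CPM and 35.7 and 28.7 CPM in other epithelial cells. Kinetochore and spindle checkpoint genes had 1.61 in Ptger4-ON and 1.77 in Ptger4-OFF (21 and 22 of 27). Chromosome condensation and cohesion genes had 1.24 in Ptger4-ON and 1.45 in Ptger4-OFF (9 and 12 of 16). The anaphase-promoting complex and mitotic exit list, which holds the degradation machinery of mitosis, had the lowest medians of these, with 0.90 in Ptger4-ON and 1.19 in Ptger4-OFF (4 and 6 of 9).

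Replication genes stood closer to their level in other epithelial cells, and some were about equal in both. Pcna, the sliding clamp of the replication fork, stood at 358 CPM in Ptger4-ON and 368 CPM in Ptger4-OFF in cycling cells and at 369 and 387 CPM in the other epithelial cells. Mcm6, a subunit of the replicative helicase, stood at 129 and 123 CPM in cycling and 124 and 143 CPM in other epithelial cells. Rrm2, the S phase subunit of ribonucleotide reductase, was higher in cycling cells, with log2 ratios of 0.82 and 0.50. By list, the medians were 0.22 in Ptger4-ON and 0.31 in Ptger4-OFF for licensing and initiation, 0.65 in Ptger4-ON and 0.49 in Ptger4-OFF for the fork and DNA repair, 0.52 in Ptger4-ON and 0.46 in Ptger4-OFF for nucleotide synthesis, and 0.73 in Ptger4-ON and 0.55 in Ptger4-OFF for chromatin assembly and DNA methylation. Foxm1, a transcription factor of G2 and M genes, had log2 ratios of 2.96 and 1.88 on 54 and 50 UMIs in cycling cells.

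Across epithelial cells sorted into ranges of selection-gene share, the mitosis and S phase lists took different courses. In Ptger4-ON the summed mitosis lists went from 1848 CPM in cells with no selection-gene UMI to 18726 CPM in cells at 0.75% and over, and in Ptger4-OFF from 1945 to 18893 CPM, higher at each step. The S phase lists were highest below the 0.3% line, at 7656 CPM in Ptger4-ON (0.1 to 0.2%) and 8189 CPM in Ptger4-OFF (0.2 to 0.3%). At 0.75% and over they stood at 5211 and 5555 CPM. The ranges are themselves cut by cell cycle genes, so this is a description of how the rule divides cycling cells. The other epithelial cells used for comparison thus include the ranges with the highest S phase sums.

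**Figure D2:**
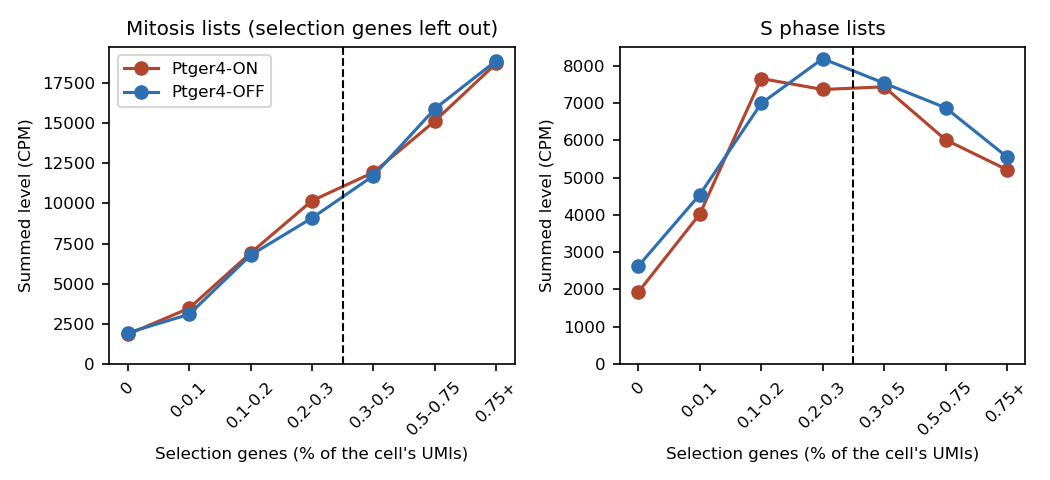
Summed level (y axes, CPM) of the mitosis lists without the selection genes (left) and the S phase lists (right) in epithelial cells by selection-gene share (x axis, % of the cell's UMIs), with Ptger4-ON in red and Ptger4-OFF in blue. The mitosis lists climb at every step, while the S phase lists peak at or below 0.3% (dashed line) and end at 5211 and 5555 CPM.

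Single cycling cells showed both programs in varying amounts. Thinned to 1000 UMIs, the 173 Ptger4-ON cycling cells carried 0 to 19 S phase UMIs (median 7) and 0 to 31 mitosis UMIs (median 13), and the 364 Ptger4-OFF cells 0 to 18 (median 7) and 3 to 31 (median 14). Other epithelial cells had medians of 3 and 4 S phase UMIs and of 3 mitosis UMIs in both libraries. Over cycling cells the Spearman correlation of the 2 sums was -0.14 and -0.08, and over other epithelial cells 0.56 and 0.49. The classes are themselves cut by cell cycle genes, so the difference between these correlations is not read as a trait of cycling cells. The cells of 1 library share its preparation, and these values carry no test.

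**Figure D3:**
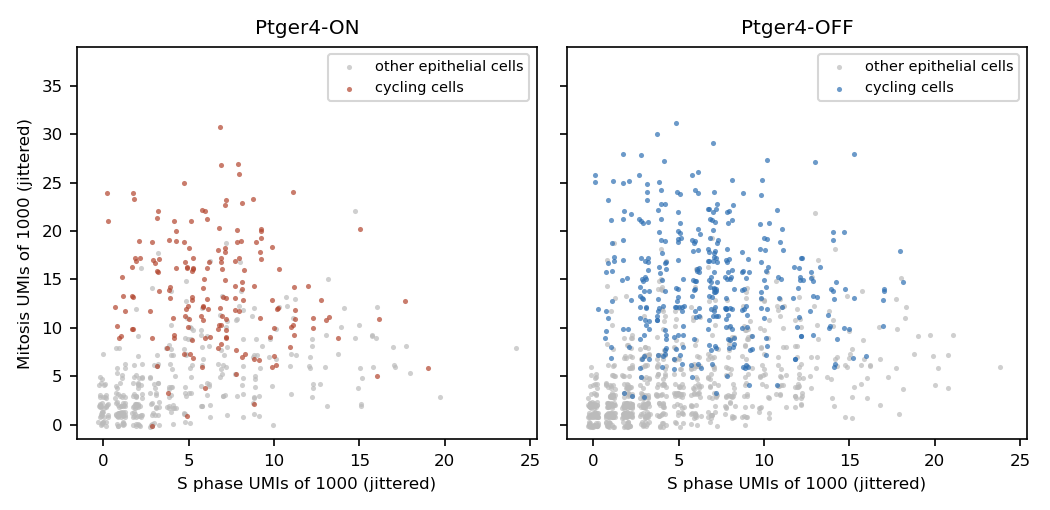
S phase UMIs (x axis) and mitosis UMIs without the selection genes (y axis) of single epithelial cells thinned to 1000 UMIs, with small random offsets; cycling cells are coloured and other epithelial cells grey. In both libraries the cycling cells lie higher on the y axis (medians 13 and 14 against 3 and 3) and span the x axis.

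Cycling cells were also marked by what they held less of. The enterocyte list, genes of absorptive villus cells, had median log2 cycling-to-other ratios of -2.79 in Ptger4-ON and -2.90 in Ptger4-OFF, with 15 of 19 and 19 of 22 genes past 2-fold lower. The enteroendocrine list had -3.86 in Ptger4-ON and -3.49 in Ptger4-OFF, Paneth cells -1.81 in Ptger4-ON and -1.91 in Ptger4-OFF, and goblet cells -1.51 in Ptger4-ON and -1.35 in Ptger4-OFF. The fetal-like and regenerative list had -1.64 in Ptger4-ON and -1.36 in Ptger4-OFF, with 24 of 28 and 17 of 25 genes past 2-fold lower. Cells just below the selection line were often as low. From 0.2 to 0.3% and from 0.3 to 0.5%, the enterocyte list summed to 1185 and 1052 CPM in Ptger4-ON. In Ptger4-OFF it summed to 2095 and 1756 CPM. The fetal-like list summed to 4360 and 4767 CPM in Ptger4-OFF, but to 17287 and 9667 CPM in Ptger4-ON (9299 CPM from 0.1 to 0.2%). The 10 genes lowest in cycling cells in both libraries were Gsta1, Ly6d, Krt20, Prap1, Anxa10, F3, St3gal4, Apob, Clu and Nupr1. Krt20, a keratin of differentiated surface cells, stood at 82.4 CPM in Ptger4-ON and 78.8 CPM in Ptger4-OFF, against 573 and 517 CPM in other epithelial cells. A single cell gave 72.7% of the Ly6d UMIs of Ptger4-OFF cycling cells.

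Crypt stem cell genes were somewhat higher in cycling cells, with list medians of 0.52 in Ptger4-ON and 0.24 in Ptger4-OFF. Of 17 and 18 measured genes 12 and 11 were higher, 1 and 0 past 2-fold, beside 54.1% and 53.8% of all genes higher. From 0.1 to 0.2%, 0.2 to 0.3% and 0.3 to 0.5% of selection genes, the list summed to 2374, 1769 and 2306 CPM in Ptger4-ON. In Ptger4-OFF it summed to 2634, 2596 and 2690 CPM. The level was thus not particular to cells past the line, though at 0.75% and over the sums were 2821 and 3215 CPM. Lgr5, the receptor for R-spondins that marks crypt base stem cells, had log2 ratios of 0.67 and 0.42, and Ascl2, a transcription factor of the same cells, 0.83 and 0.58. Thinned to 1000 UMIs, 13.9% and 11.8% of cycling cells had an Lgr5 UMI, against 4.79% and 9.66% of other epithelial and 1.13% and 0.284% of fibroblast-gated cells. Unthinned, at medians of 6085, 5631.5, 4591.5 and 4495 UMIs for the cycling and then the fibroblast-gated cells, the shares were 43.6% and 44.4% and 1.70% and 1.93%. The cyclin-dependent kinase inhibitor Cdkn1a was lower in cycling cells, with log2 ratios of -0.85 and -1.08. The G1 cyclin list had medians of -0.01 in Ptger4-ON and -0.18 in Ptger4-OFF.

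**Figure D4:**
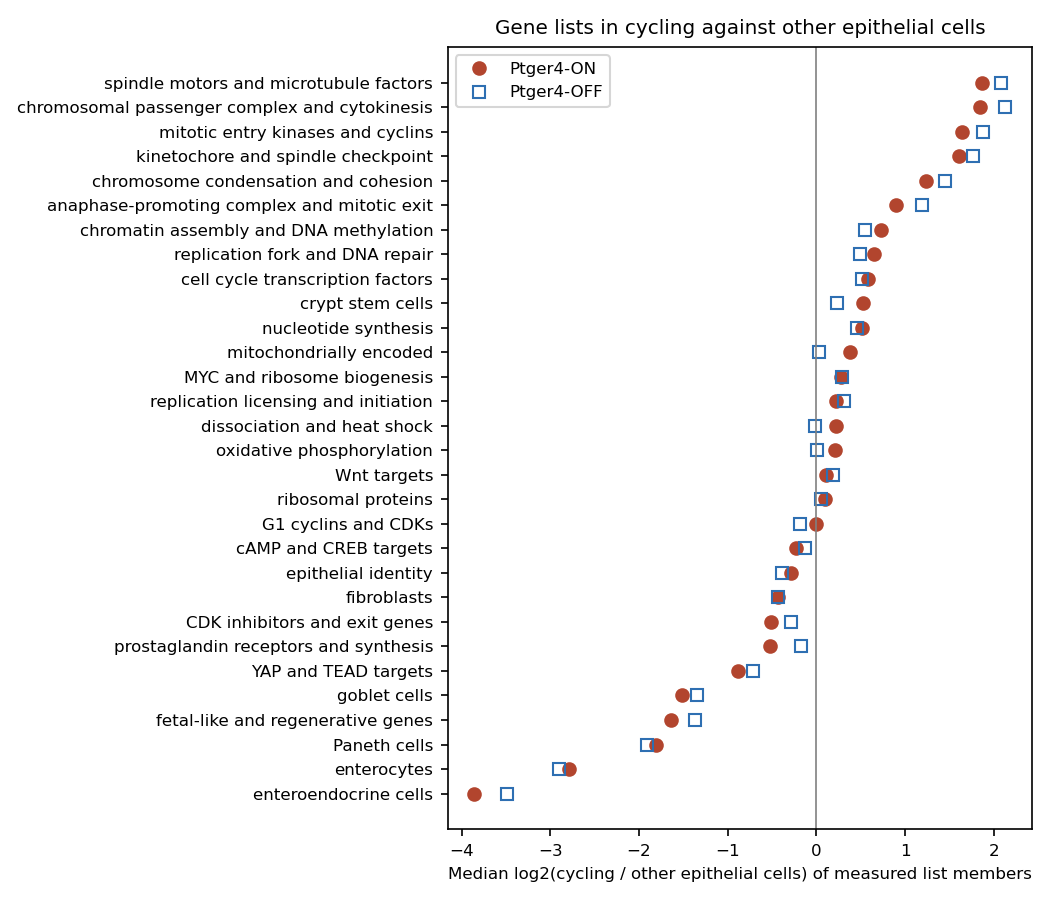
Median log2 ratio of cycling to other epithelial cells (x axis) over the measured genes of each fixed list with at least 5 of them (y axis), with Ptger4-ON as filled red circles and Ptger4-OFF as open blue squares. The mitosis lists lie farthest right, the S phase lists between them and 0, and the lists of differentiated cell types and of fetal-like genes farthest left.

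Between the conditions, the S phase and mitosis lists of cycling cells had medians near 0, while the fetal-like list was lower in Ptger4-OFF. Cells of both libraries were selected at the same line, and the selection genes summed to 5253 CPM in Ptger4-ON and 5307 CPM in Ptger4-OFF. This favours like levels of the mitosis genes that rise with them. Their median near 0 is therefore partly set by the rule and is not read as a result about the conditions. Of 10064 genes measured in cycling cells, 456 (4.53%) differed at least 2-fold, 179 (1.78%) higher and 277 (2.75%) lower in Ptger4-OFF, and the median log2 ratio of Ptger4-OFF to Ptger4-ON was -0.03. In the other epithelial cells 894 of 11021 genes (8.11%) differed at least 2-fold, 389 (3.53%) higher and 505 (4.58%) lower in Ptger4-OFF. The S phase lists had a median of 0.06 in cycling cells (42 genes higher and 29 lower in Ptger4-OFF, none past 2-fold). The mitosis lists had a median of 0.07 (56 higher, 39 lower) in cycling cells and -0.21 in other epithelial cells (70 of 94 lower). The 20 genes that stood highest in cycling cells had ratios between 0.700 and 1.27. They were picked as high in both libraries, which favours like levels in the 2. Cdk1 was 1.19-fold higher in Ptger4-OFF (95% counting interval 1.08 to 1.33).

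G1 cyclins, cell cycle transcription factors and Wnt targets were mostly lower in Ptger4-OFF cycling cells, by less than 2-fold for all but 1 gene. These lists share members and are not independent. Ccnd1 is on the G1 and Wnt lists and Myc on the transcription factor and Wnt lists. Several Wnt targets, among them Sox9, Lgr5 and Ascl2, are also on the crypt stem cell list. Over all 10064 genes, 5393 were lower and 46.4% higher. Of the 8 measured G1 cyclins and CDKs, 7 were lower and 0 past 2-fold, with a list median of -0.40. Ccnd1, cyclin D1, stood at 318 CPM in Ptger4-ON and 187 CPM in Ptger4-OFF, and Ccnd2, cyclin D2, at 810.2 and 564 CPM. Ccnd1 was 1.70-fold higher in Ptger4-ON (95% counting interval 1.52 to 1.91), and in other epithelial cells its log2 ratio was -1.23. In other epithelial cells the G1 list's median was -0.04 (4 higher, 4 lower). That of the transcription factors was -0.12 and that of the Wnt targets -0.09 (4 higher, 9 lower). There 1 G1 gene and 3 Wnt targets were past 2-fold lower, beside 4.58% of all genes. Summed over the G1 list, the Ptger4-OFF to Ptger4-ON ratio was 0.729 in cycling and 0.619 in other epithelial cells. For the Wnt targets these sums gave 0.735 and 0.633, and for the transcription factors 0.863 and 1.01. Of 11 cell cycle transcription factors 9 were lower and 1 past 2-fold (median -0.32), with Myc at 51.8 and 36.5 CPM and Foxm1 at 24.3 and 16.9 CPM. The median of that list ranged from -0.43 to 0.06 over the alternative settings. Of 13 Wnt targets 10 were lower and 0 past 2-fold (median -0.52), among them Cd44 at 166 and 107 CPM and the receptor Ephb3 at 21.6 and 12.2 CPM. Cdkn1c, a kinase inhibitor, had 4 and 26 UMIs in cycling cells and was 4.88-fold higher in Ptger4-OFF (95% counting interval 1.69 to 19.2), or 15.6-fold without cells over 50000 UMIs, while Cdkn1a stood at 436 and 383 CPM.

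Crypt stem cell genes were mixed in direction. Over the crypt stem cell list the median was 0.11, with 9 of 16 genes higher in Ptger4-OFF and 3 past 2-fold. Over all genes 46.4% were higher and 1.78% past 2-fold higher. Lgr5 stood at 123 CPM in Ptger4-ON and 129.8 CPM in Ptger4-OFF and Ascl2 at 37.4 and 41.2 CPM, and their Ptger4-OFF to Ptger4-ON ratios were 1.06 and 1.10. Smoc2, a matricellular protein made by crypt base cells, stood at 169 and 343 CPM, and was 2.03-fold higher in Ptger4-OFF (95% counting interval 1.80 to 2.29). Nrn1 stood at 23.4 and 66.9 CPM. Ttr, a thyroid hormone carrier protein, stood at 78.3 and 143 CPM. Olfm4, a secreted product of crypt base cells, was sparse, with 14 and 58 UMIs, of which 1 cell gave 50% in Ptger4-ON. Sox9, a transcription factor of the crypt base, was lower in Ptger4-OFF at 174 and 121 CPM.

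The fetal-like and regenerative list had the lowest median between conditions of all lists with at least 5 genes measured in cycling cells. All 25 measured genes were lower in Ptger4-OFF, 19 of them past 2-fold, with a median log2 ratio of -1.40, against -1.61 in other epithelial cells. Over all 10064 genes, 5393 were lower and 2.75% past 2-fold lower. The list was chosen with results of these libraries known, so its direction is a description. S100a6, a calcium-binding protein, stood at 1900.0 CPM in Ptger4-ON and 648 CPM in Ptger4-OFF, and was 2.93-fold higher in Ptger4-ON (95% counting interval 2.78 to 3.10). S100a11 stood at 536 and 191 CPM, and Anxa1, a phospholipid-binding annexin, at 182 and 62.5 CPM. Ly6a, the Sca-1 surface antigen, stood at 435 and 161 CPM, but 1 cell gave 43.7% of its Ptger4-ON UMIs. Without the cell with the most Ly6a UMIs in each library it was 2.26-fold higher in Ptger4-ON.

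The shares of cells had the same direction as the summed UMIs. Thinned to 1000 UMIs, 50.3% and 15.4% of cycling cells carried at least 5 UMIs of the list (22 and 14 cycling cells under 1000 UMIs were left out), against 71.5% and 33.9% of other epithelial cells. Fibroblast-gated cells, which express several of these annexins and S100 genes, had 79.3% and 84.9% and give no background level for this list. In cycling cells selected at 0.5% the list's median was -0.9999, and with equal weight for each cell -1.84. Clu, a chaperone of regenerating crypts, had a UMI in 17.9% and 5.22% of thinned cycling cells and in 2.26% and 0.852% of fibroblast-gated ones, and unthinned in 41.5% and 14.6% and 8.16% and 2.20%. Targets of YAP and TEAD had a median of -0.77 with 12 of 13 lower and 5 past 2-fold lower, beside 2.75% of all genes. Those 5 were Myof, Ereg, F3, Ctgf and Areg. Ereg, F3 and Areg are also on the fetal-like list, so the 2 lists are not independent. Myof, a membrane repair protein on the YAP and TEAD list, stood at 53.6 and 11.8 CPM. Of 19 cAMP and CREB targets 11 were lower and 8 higher, near the 5393 lower of 10064 over all genes, with a median of -0.20 that ranged from -0.21 to 0.009 over the alternative settings. Areg, an EGF receptor ligand and 1 of the 2 past 2-fold lower on that list, stood at 487 and 221 CPM.

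By the rule on ratio and level, the 15 largest Ptger4-OFF to Ptger4-ON ratios in cycling cells belonged to Ces2e, Otc, Cth, Ccl25, Prlr, Reg3b, Reg3g, Smoc2, Mgst2, Cyb5, Pdss1, Ttr, Acadvl, Fabp2 and Coq9, of which 8 were past 2-fold. Ces2e, an intestinal carboxylesterase, stood at 47.7 CPM in Ptger4-ON and 153 CPM in Ptger4-OFF and was 3.22-fold higher in Ptger4-OFF (95% counting interval 2.598 to 4.01). Otc, a urea cycle enzyme present in small intestine, stood at 64.4 and 170.4 CPM. Ccl25, a chemokine of small intestinal epithelium, stood at 53.1 and 118 CPM. In other epithelial cells, 14 of the 15 had the same direction, and Reg3g, an antimicrobial lectin, had the opposite one. The 15 smallest ratios belonged to Zg16, Msln, Reg4, Wfdc2, Lyz1, Fabp5, Anxa3, S100a6, Anxa1, Ahnak, S100a11, Ly6a, Emp1, Rpl38 and Spink4, and all 15 were past 2-fold lower in Ptger4-OFF in other epithelial cells too.

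**Figure D5:**
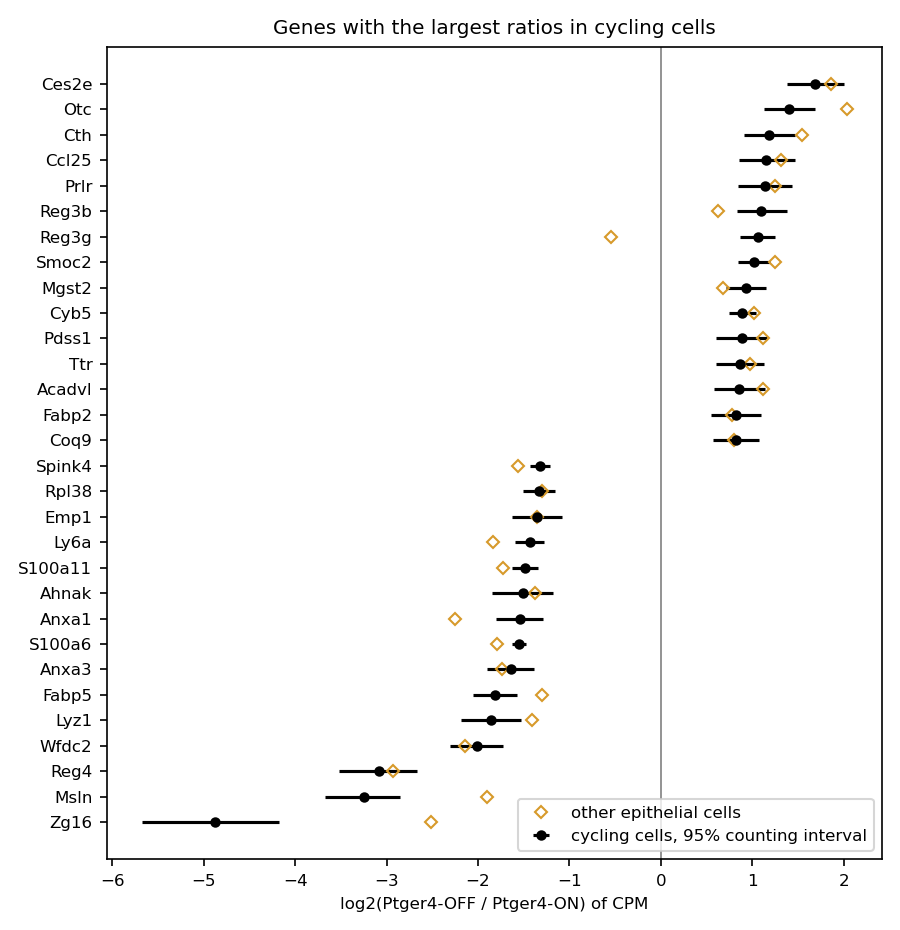
Log2 ratio of CPM in Ptger4-OFF to Ptger4-ON (x axis) for the genes with the 15 largest and 15 smallest ratios in cycling cells (y axis), as black points with 95% counting intervals, and for the same genes in other epithelial cells as open diamonds without intervals. Of the 30 genes, Reg3g alone has its diamond on the other side of 0.

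Several of these genes had a large part of their UMIs in 1 cell. For Zg16, a goblet cell lectin, 96.0% of the 376 Ptger4-ON UMIs and 94.1% of the 17 Ptger4-OFF UMIs came from 1 cell each, and 9 and 2 cycling cells had any. Without those cells 15 and 1 Zg16 UMIs were left, a Ptger4-ON to Ptger4-OFF ratio of 20.001 (95% counting interval 3.08 to 842). For Msln, mesothelin, the top cell gave 36.2% and 62.1%, and the gene was 9.51-fold higher in Ptger4-ON with them and 16.7-fold without. For Lyz1, the lysozyme of Paneth cells, it gave 46.9% in Ptger4-ON, and without the top cells the gene was 2.31-fold in place of 3.62-fold higher there. Lyz1 also stood at 152 and 9.16 CPM in fibroblast-gated cells, which should lack it.

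Genes of differentiated lineages differed by lineage in cycling cells. The Paneth list summed to 2944 CPM in Ptger4-ON and 1656 CPM in Ptger4-OFF and the goblet list to 2464 and 1201 CPM, while the enteroendocrine and tuft lists stayed between 4.95 and 50.4 CPM. Over all genes 46.4% were higher in Ptger4-OFF, with 1.78% past 2-fold higher and 2.75% past 2-fold lower. The enterocyte list had a median of 0.81 with 11 of 15 higher in Ptger4-OFF and 6 past 2-fold. Fabp1, a fatty acid carrier of enterocytes, had 10 and 243 UMIs, with 32.9% of the latter in 1 cell. The goblet list had a median of -0.77 (11 of 12 lower, 5 past 2-fold), which was -1.43 in cells selected at 0.5%. Tff3, the trefoil peptide of goblet cells, stood at 733 CPM in Ptger4-ON and 452 CPM in Ptger4-OFF. The Paneth list had a median of -0.87 (5 of 6 lower), but 0.34 in cells selected at 0.2% and 0.28 in cells selected after thinning. Mmp7, the protease that activates Paneth defensins, stood at 1074 and 526 CPM. Enteroendocrine and tuft genes came from few cells. Chgb, a granin of endocrine cells, had 8 and 79 UMIs, all of the former and 84.8% of the latter in 1 cell. In other epithelial cells the median was 1.04 for the enterocyte list, -1.53 for the goblet list and -1.46 for the Paneth list. These directions are those given above for cycling cells, with larger values.

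Markers of other cell types were also summed in the class. Of the 13 listed fibroblast genes, Col1a1, Col1a2, Col3a1, Sparc and Dcn were used by the rule, so their level is set by it. The 8 others, Lum, Pdgfra, Col6a1, Col6a2, Thy1, Vim, Mgp and Grem1, summed to 23.0 and 22.6 CPM in cycling cells, with Pdgfra and Thy1 at 0 in both libraries, against 6755 and 7314 CPM in fibroblast-gated cells. All 13 summed to 83.7 and 94.98 CPM in cycling cells. The smooth muscle, pericyte, endothelial, leukocyte and enteric glia lists summed to between 0 and 14.9 CPM, with Ptprc, the pan-leukocyte gene, at 0 in both libraries. None of the listed red blood cell symbols was in the tables. The part of free or neighbouring RNA in the values of Paneth and goblet genes was not tested.

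Ptger4 itself was present at low levels. It stood at 22.1 CPM in Ptger4-ON and 24.7 CPM in Ptger4-OFF in cycling cells (49 and 73 UMIs), at 30.0 and 32.1 CPM in other epithelial cells and at 2.18 and 0.539 CPM in fibroblast-gated cells. The inhibitor acts on the receptor protein, so this level does not check the labels.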

How the data were processed

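Drop-seq libraries of 2 pools of co-cultures, released with trypsin and EDTA, were analysed. Each deposited table holds raw counts, whole numbers for every gene in every barcode, and these were taken as UMIs because the labels name Drop-seq. The submitters' processing notes name STAR 2.6 and mm10, while counter, annotation and barcode rule are not stated in the sources used here. UMIs were summed over the cells of each class and library and scaled to CPM. A log2 ratio used a pseudocount of 0.5 UMIs, and a gene was measured with at least 20 UMIs over both sums. Intervals are exact Poisson, exact conditional binomial or Clopper-Pearson at 95%. Counts of 10071 genes were simulated with Poisson error alone for the Ptger4-OFF to Ptger4-ON comparison. Intervals held the true ratio for 95.8% of unaltered and 95.5% of altered genes. The intervals assume that same error, so this checks the calculation only. UMIs that gather in single cells were not simulated.

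Named genes were the 20 highest and 10 lowest in cycling cells (at least 50 UMIs in each library), the 15 largest and 15 smallest condition ratios (levels of 100 CPM or more in 1 library, and 0.5 or more of the fibroblast-gated level), up to 4 members of each of 39 fixed lists, and a fixed set of 22. The members, lists and rules were chosen with earlier results of these data known. Python 3.11.15, scipy 1.17.1, scanpy 1.11.5 (doublet calls) and edgeR 4.0.16 (TMM factors, as an alternative scaling) were used. Alternatives covered the selection line, depth, thinning, scaling, filters and barcode artefacts.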

Additional observations from a re-analysis of the deposited data

Results flagged for a closer look

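Reg3g had opposite directions in the 2 epithelial classes. Its log2 ratio of Ptger4-OFF to Ptger4-ON was 1.06 in cycling cells (140.0 CPM in Ptger4-ON and 292 CPM in Ptger4-OFF) and -0.54 in other epithelial cells (593 and 407 CPM). The difference was not tested. A single cell gave 18.6% and 11.9% of its UMIs in cycling cells, and without cells over 50000 UMIs it was 1.68-fold higher in Ptger4-OFF.

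The anaphase-promoting complex and mitotic exit list also had opposite directions, with a median of 0.146 in cycling cells and -0.23 in other epithelial cells. The other mitosis lists and the chromosome condensation and cohesion list had the same pair of signs. Their medians were 0.02 to 0.10 in cycling cells and -0.34 to -0.07 in other epithelial cells. That difference was not tested. Cycling cells of both libraries were selected at the same line, which favours like levels of mitosis genes in them.

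Fibroblast-gated cells, which the comparisons do not use as members, passed the 0.3% line for the selection genes in 3.06% of cases in Ptger4-ON (9 of 294) and 3.03% in Ptger4-OFF (11 of 363).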

How the results depend on the processing

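No paired analysis was possible because each condition had 1 library. With the selection line at 0.2% of UMIs the share of cycling cells was 42.1% in Ptger4-ON and 40.1% in Ptger4-OFF, at 0.5% it was 17.8% and 17.3%, and after thinning it was 34.5% in Ptger4-OFF. The fetal-like median of Ptger4-OFF to Ptger4-ON was -0.9999 at 0.5%, -1.78 after thinning and -1.84 with equal weight for each cell, and the goblet median was -1.43 at 0.5%. The Paneth median reversed to 0.34 at 0.2% and to 0.28 after thinning, and its cycling-to-other median in Ptger4-OFF reversed to 0.11 after thinning. The dissociation list reversed to 0.019 with at least 50 UMIs per gene, and mt-Tm to 0.41 with equal weight. Genes at least 2-fold higher and lower in Ptger4-OFF cycling cells numbered 179 and 277 as reported, 509 and 656 with equal weight, 293 and 449 with at least 10 UMIs, and 68 and 124 with at least 50 UMIs. Genes at least 2-fold higher in cycling than other cells numbered 697 (Ptger4-ON) and 507 (Ptger4-OFF) with equal weight, and 470 and 462 were at least 2-fold lower with at least 50 UMIs. The UMI minimum changes which genes are tested; for the other settings the cause was not tested. Leaving out barcodes that end in an unread base was added after seeing the data. Medians between conditions ranged from 0.03 to 0.19 for the mitosis lists and from 0.02 to 0.20 for the S phase lists. Genes with few UMIs, or with UMIs from 1 cell, limit the lineage lists.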

Other observations

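Ribosomal protein genes were lower in Ptger4-OFF cycling cells in 65 of 77 cases, beside 5393 of 10064 over all genes. Their median log2 ratio was -0.25, and -0.25 in other epithelial cells. Rpl38, a protein of the large subunit, stood at 357 CPM in Ptger4-ON and 142 CPM in Ptger4-OFF, and at 394 and 176 CPM in fibroblast-gated cells, so its difference was of like size outside the epithelium. Rps28 stood at 289 and 158 CPM in cycling and 440.2 and 222 CPM in fibroblast-gated cells.

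Nuclear genes of oxidative phosphorylation had a median of 0.18 in cycling cells and 0.36 in other epithelial cells. In cycling cells 17 of 26 were higher in Ptger4-OFF, beside 46.4% of all genes. Mitochondrially encoded genes, also used by the filter on barcodes, summed to 25147 and 33616 CPM in cycling cells, 1.34-fold higher in Ptger4-OFF, and were 1.68-fold higher there in other epithelial cells. Their part in the result was not tested. Uqcrc2, a core protein of complex III, stood at 471 and 627 CPM and Sdhb, an iron-sulfur subunit of complex II, at 356 and 464 CPM. Genes of MYC and ribosome biogenesis had a median of -0.08. Of 12 dissociation and heat shock genes 5 were higher and 7 lower, near the 5393 lower of 10064 over all genes. Of the 7, 3 were past 2-fold lower, beside 2.75% of all genes. The list's median was -0.19, and 0.06 in other epithelial cells. Hspa1a and Hspa1b, heat shock chaperones and 2 of those 3, had 19 and 9 UMIs and 26 and 6 UMIs in the cycling cells of Ptger4-ON and Ptger4-OFF.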
